A study of Homo sapiens with 6 samples.

Results

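CD180 is a membrane protein of the Toll-like receptor family, and its transcript ranked number 3 among the rises of all genes measured when ARPE-19 cells were exposed to FAC. The genes described are CD180 and its relatives and partners LY86, LY96 and TLR1 to TLR7, taken by the gene symbols of the array's annotation. All 10 had a named probe, 1 probe each, out of 14884 genes with a named probe. CD180 was chosen by the size of its difference between FAC-treated and untreated cells on these arrays, so that difference is a description and carries no test. The other 9 were taken by family, and they were tested with limma, with p-values adjusted by Benjamini-Hochberg over all genes and a threshold of 0.05. Differences are log2, FAC minus untreated, ± SE, and "rose" or "fell" is used of genes past that threshold.

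RNA came from ARPE-19 cells, a human line established from retinal pigment epithelium, with 1 array for each of 6 cultures. In 3 cultures the cells received 250 µM FAC, which in studies of iron usually stands for ferric ammonium citrate, and in 3 they received vehicle. All 6 had been grown to confluence, held for 4 weeks in 1% serum to differentiate, and then spent the 2 days of exposure without serum. The labels name 1 cell line, 1 dose and 1 time.

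Toll-like receptors are membrane sensors that recognise microbial molecules through an ectodomain of leucine-rich repeats and signal through an intracellular TIR domain, which recruits the adaptors MYD88 or TICAM1 and leads to NF-kappaB and interferon regulatory factors. CD180, also called RP105, has such an ectodomain, closely related to that of TLR4, but no TIR domain, and it reaches the surface of B cells and myeloid cells paired with the secreted protein MD-1, the product of LY86. In mice it takes part in B cell responses to lipopolysaccharide and restrains TLR4 in myeloid cells. TLR4 pairs in the same way with MD-2, the product of LY96.

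The promoter sequences of the 3 genes on which the description turns are shown: CD180, TLR3, which rose, and TLR5, which fell. They are RefSeq sequences of build GRCh38.p14, each 300 bases from 250 before the annotated start, written 5′ to 3′ on the gene's own strand. Capitals mark every match to 6 short motifs on either strand. The motifs were GGG and CC with 5 bases of any kind between them for NF-kappaB, GAAA and GAAA with 2 bases between them for interferon regulatory factors, GAGGAA for PU.1, TGACTCA for AP-1, TGAC and GC with 3 bases between them for NRF2, and ACGTG for hypoxia-inducible factors.
CD180, chr5:67196750-67197049, minus strand: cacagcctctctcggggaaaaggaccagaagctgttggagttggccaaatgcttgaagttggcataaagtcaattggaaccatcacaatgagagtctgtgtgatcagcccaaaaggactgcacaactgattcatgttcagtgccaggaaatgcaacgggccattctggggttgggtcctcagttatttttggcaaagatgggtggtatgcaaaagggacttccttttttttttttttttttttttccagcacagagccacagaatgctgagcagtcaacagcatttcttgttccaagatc
TLR3, chr4:186068906-186069205, plus strand: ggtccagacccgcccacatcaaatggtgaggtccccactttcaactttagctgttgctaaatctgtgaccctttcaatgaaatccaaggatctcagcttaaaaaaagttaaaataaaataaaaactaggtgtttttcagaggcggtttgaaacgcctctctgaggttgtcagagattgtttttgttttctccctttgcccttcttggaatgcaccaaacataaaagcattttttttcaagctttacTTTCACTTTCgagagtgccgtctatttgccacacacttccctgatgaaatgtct
TLR5, chr1:223143199-223143498, minus strand: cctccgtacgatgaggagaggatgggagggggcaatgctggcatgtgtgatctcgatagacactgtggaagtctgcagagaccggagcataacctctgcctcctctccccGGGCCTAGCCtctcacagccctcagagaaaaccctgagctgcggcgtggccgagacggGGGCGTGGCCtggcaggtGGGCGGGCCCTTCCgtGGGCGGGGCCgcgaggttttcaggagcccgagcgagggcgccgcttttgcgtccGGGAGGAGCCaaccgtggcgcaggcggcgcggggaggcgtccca

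The CD180 window held none of the 6 motifs. The TLR3 window held 1 match, to the interferon regulatory factor motif on the reverse strand, read forward as TTTCACTTTC, and its first base lay 4 bases before the start. Of 35114 promoters of this length, 3.57% held that motif. The TLR5 window held 7 matches to the NF-kappaB motif, some of which overlap or lie on both strands, and 58.7% of all promoters held at least 1. The shares were 27.9% for the PU.1 motif, 4.95% for AP-1, 13.3% for NRF2 and 21.4% for hypoxia-inducible factors. Promoters of 7 of the 10 genes were found in the table. Among the 4 not printed, LY86 held 2 PU.1 matches, TLR4 held 4 and 1 NRF2 match, TLR6 held 1 PU.1 match, and the TLR2 window held 7 NF-kappaB matches and 2 to the hypoxia motif. Most of these NF-kappaB matches overlap on opposite strands, as do the 2 hypoxia matches, so they are not separate places. Every fixed base of the NF-kappaB motif is G or C. These bases made up 68.3% of the TLR5 window and 72.7% of the TLR2 window, beside 45% for CD180 and 40.3% for TLR3. A match describes letters in a window, and no binding was measured.

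In FAC-treated cells, CD180 measured 9.50, 9.52 and 9.64 on the log2 intensity scale, against 8.15, 8.56 and 8.34 in untreated cells. The means were 9.55 ± 0.08 with FAC and 8.35 ± 0.21 without (SD, n = 3 each), a difference of 1.20 ± 0.10 (SE), or 2.30-fold. Every FAC array lay above every untreated array, with a gap of 0.93 between the lowest FAC value and the highest untreated value. The spread was mostly in the untreated cells, where replicate 2 lay highest and replicate 1 lowest. By mean level CD180 stood at percentile 80.7 of the genes tested, so its signal was not among the dim ones. In an extract of whole cultures, more cells with the transcript and more transcript per cell cannot be told apart.

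**Figure D1:**
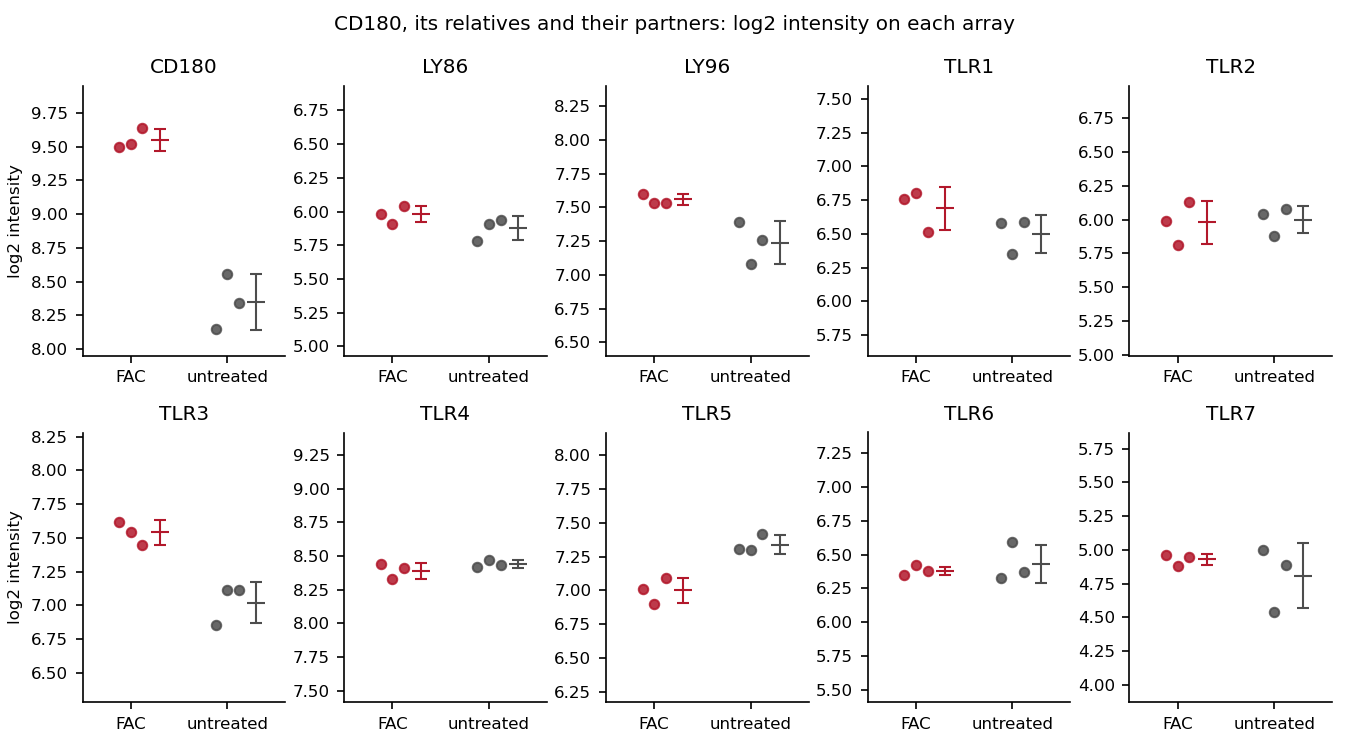
Log2 intensity of CD180, LY86, LY96 and TLR1 to TLR7 on each of the 6 arrays, FAC-treated cells in red at the left and untreated cells in grey at the right, with the mean and SD of each group beside the points. Every panel spans 2 log2 units around the gene's own mid-level, so slopes can be compared but heights cannot. The gap between groups was 0.93 for CD180, and the groups also stood apart for LY96, TLR3 and TLR5.

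LY86, the gene of the CD180 partner MD-1, did not follow CD180. It measured 5.98, 5.91 and 6.04 in FAC-treated cells and 5.78, 5.91 and 5.94 in untreated cells, so the groups overlapped. The difference was 0.10 ± 0.06, with a 95% interval of -0.05 to 0.25 and an adjusted p of 0.491. LY86 lay at percentile 26.5 by mean level, in the dimmest 33.3% of genes, and the table holds no detection calls that would show whether its signal is above background. LY86-AS1, an antisense RNA at the same locus, measured 0.15 ± 0.08 (adjusted p = 0.421).

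LY96, the gene of the TLR4 partner MD-2, measured 7.60, 7.53 and 7.53 with FAC, against 7.39, 7.08 and 7.26 in untreated cells. The FAC arrays all lay above the untreated ones, by a gap of 0.14, and the difference was 0.31 ± 0.08. It did not pass the test over all genes (adjusted p = 0.0916). With the dimmest 33.3% of genes left out, it did pass (adjusted p = 0.0469). With a variance prior that follows intensity and is robust to genes of outlying variance, it passed with the same adjusted p. In the other 12 of the 14 alternatives described at the end, LY96 did not pass (adjusted p up to 0.259).

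TLR4 itself, the receptor for lipopolysaccharide, was nearly the same in both groups. Its values were 8.44, 8.33 and 8.41 in FAC-treated cells and 8.42, 8.47 and 8.43 in untreated cells. The difference of -0.05 ± 0.05 had a 95% interval of -0.17 to 0.08 (adjusted p = 0.732), and TLR4 was the least variable of the 10 genes within groups, with a pooled SD of 0.045 against a median of 0.086 over all genes.

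TLR3, the endosomal receptor for double-stranded RNA, rose. It measured 7.62, 7.54 and 7.45 in FAC-treated cells and 6.85, 7.11 and 7.11 in untreated cells. The groups did not overlap, with a gap of 0.34, and the difference was 0.52 ± 0.09, or 1.43-fold (adjusted p = 0.0213). Without untreated replicate 3, FAC replicate 1 or FAC replicate 2 the rise kept its direction but no longer passed (adjusted p = 0.0575, 0.0962 and 0.0672). TICAM1, the adaptor through which TLR3 signals, measured 0.00 ± 0.11 (adjusted p = 0.996).

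TLR5, the receptor for bacterial flagellin, fell. FAC-treated cells measured 7.01, 6.90 and 7.09, and untreated cells 7.31, 7.30 and 7.42. All FAC arrays lay below all untreated ones, and the difference was -0.34 ± 0.07 (adjusted p = 0.0358). That call rested on all 6 arrays. Leaving out any 1 of them gave an adjusted p from 0.0571, without FAC replicate 3, to 0.130, without FAC replicate 1, with differences of -0.39 to -0.29. The values were 0.0855, 0.0626 and 0.127 without untreated replicates 1, 2 and 3, and 0.102 without FAC replicate 2.

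The receptors for lipopeptides, TLR2 and its partners TLR1 and TLR6, did not pass. TLR1 measured 0.19 ± 0.10 (adjusted p = 0.389), TLR2 -0.02 ± 0.09 (adjusted p = 0.925) and TLR6 -0.05 ± 0.08 (adjusted p = 0.815), and in each the groups overlapped. Their 95% intervals ran from -0.04 to 0.41 for TLR1, from -0.24 to 0.19 for TLR2 and from -0.22 to 0.13 for TLR6. TLR7, a sensor of single-stranded RNA, measured 0.12 ± 0.11 (adjusted p = 0.65). TLR2 and TLR7 were in the dimmest 33.3% of genes, at percentiles 27.5 and 12.2. TLR7 was the most variable of the 10 genes, and its untreated values of 5.0, 4.54 and 4.89 spanned more than its FAC values of 4.96, 4.88 and 4.95.

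The 3 remaining receptors of the human family, which lie outside the chosen set, did not pass either. TLR9, the sensor of unmethylated DNA, measured 0.21 ± 0.08 with the FAC arrays just above the untreated ones (adjusted p = 0.26). TLR8 measured -0.05 ± 0.08 and TLR10 0.09 ± 0.08, both among the dimmest 33.3%.

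**Figure D2:**
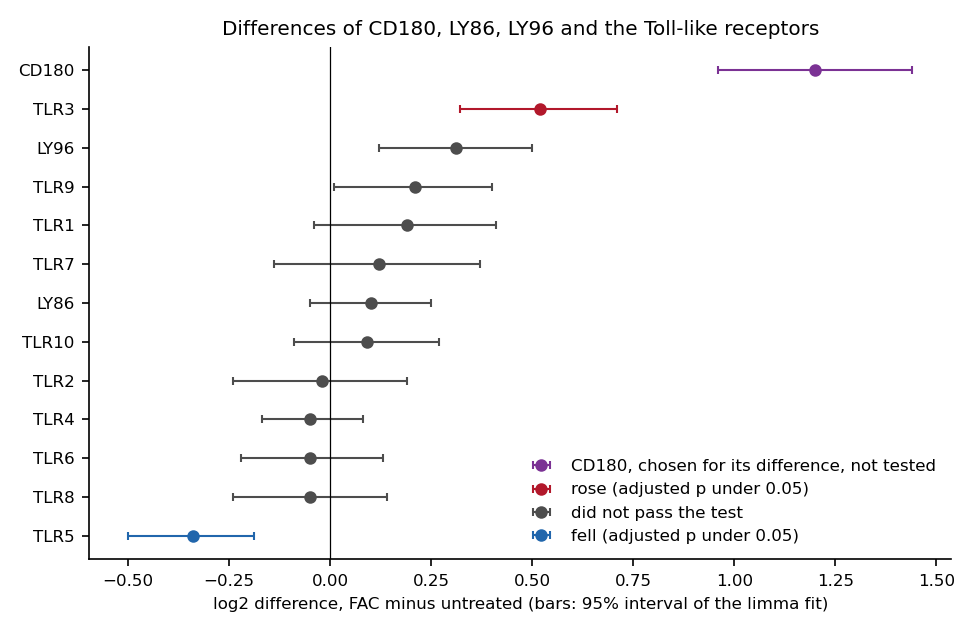
Log2 difference, FAC minus untreated, of CD180, LY86, LY96 and the 10 Toll-like receptors, ordered from the largest rise to the largest fall, with 95% intervals from the limma fit. CD180 stands at 1.20, TLR3 next at 0.52 and TLR5 last at -0.34, and the intervals of most others include 0.

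Of the 9 genes other than CD180, then, 1 rose, 1 fell and 7 did not pass. Over all genes tested, 3.73% passed, 1.88% as rises and 1.85% as falls. The groups did not overlap in 3 of the 9 genes, LY96, TLR3 and TLR5, where 23.4% of all genes had groups that did not overlap. In LY96 and TLR3 the FAC arrays lay above, as in 10.4% of all genes, and in TLR5 below, as in 13.0%. The median difference of the 9 was 0.10, beside 0.00 over all genes. In order, TLR3 was followed by LY96, TLR1, TLR7, LY86, TLR2, TLR4, TLR6 and TLR5. The 95% intervals of each pair of neighbours in this order overlapped, and the interval of CD180, 0.96 to 1.44, overlapped none of the others. The interval of CD180 is a description, because the gene was chosen for this difference.

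The array's facts were alike across cultures. Over all probes, the arrays' median log2 intensities ran from 6.03 to 6.09, and pairs of arrays correlated with Pearson's r from 0.991 to 0.995. Of 13 measured markers of retinal pigment epithelium, none passed the test, beside 3.73% of all genes that did. Of the 13, 4 lay in the dimmest 33.3%. The transcription factor gene OTX2 averaged 11.04 with FAC and 11.10 without, and the pigment gene TYRP1 9.87 and 10.07, while the visual cycle isomerase gene RPE65, a defining marker of the mature tissue, averaged 5.69 and 5.67 at percentile 22.6. RLBP1, a retinoid carrier, and MITF, a pigment cell regulator, had the smallest p-values (0.31 ± 0.08, adjusted p = 0.0843, and -0.15 ± 0.06, adjusted p = 0.215). RLBP1 passed with the dimmest 33.3% of genes left out (adjusted p = 0.0417) and without untreated replicate 3 (adjusted p = 0.0395). In the other 12 of 14 alternatives it did not pass (adjusted p up to 0.234).

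CD180 is best known from B cells and myeloid cells, so their other markers were read on the same arrays. Of 10 B cell markers, 6 had a named probe, all 6 lay in the dimmest 33.3% of genes and none passed. Their mean log2 level ranged from 5.65 to 5.78 on FAC arrays and from 5.65 to 5.74 on untreated arrays. The B cell transcription factor gene PAX5 measured 0.15 ± 0.09 (adjusted p = 0.45) and the kinase gene BLK 0.09 ± 0.09 (adjusted p = 0.671). MS4A1, CD79A and CD79B had no named probe and were not analysed here. Of 12 macrophage, monocyte and dendritic cell markers, 8 were measured, with mean levels of 6.55 to 6.62 on FAC arrays and 6.57 to 6.63 on untreated arrays, and 4 of the 8 lay in the dimmest 33.3%. Of the 8, CD68 and CSF1R stood highest by mean level, at percentiles 98.5 and 69.4. PTPRC, ITGAM, AIF1 and FCGR1A had no named probe and were not analysed here. Over all genes tested, 3.73% passed, so lists this short would hold few calls at that share. CSF1R, the receptor for a macrophage growth factor, fell (-0.37 ± 0.07, adjusted p = 0.0365), and the other 7 did not pass. Its call was lost without any 1 array other than untreated replicate 2, with adjusted p from 0.0875 without FAC replicate 3 to 0.146 without FAC replicate 1, and 0.106, 0.131 and 0.0996 without untreated replicates 1 and 3 and FAC replicate 2. The lipopolysaccharide co-receptor CD14, one of the dim markers, averaged 5.30 ± 0.02 with FAC and 5.26 ± 0.07 without (adjusted p = 0.786), and the lysosomal marker CD68, at percentile 98.5, averaged 11.32 ± 0.06 with FAC and 11.43 ± 0.06 without (adjusted p = 0.36). The part of such cells in the CD180 difference was not tested.

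The measured genes of the Toll-like receptor pathway moved about as much as genes in general. The median size of the difference was 0.08 in both. Across 8 lists ordered from receptors to induced targets, 80 of 104 genes were measured. Genes without a named probe were not analysed here. They included the signalling genes IRAK4, TRAF6 and IKBKB and the inhibitor genes NFKBIA and TNFAIP3. Among induced targets they included IL1B, IL6, CXCL1, SOD2 and IFNB1, so the pathway was read only in part. TLR3 rose, TLR5 fell and the other 78 did not pass, so 2.50% were called, beside 3.73% of all genes. The median difference of the 80 was 0.01. The groups did not overlap in 26.2% of them, beside 23.4% of all genes.

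**Figure D3:**
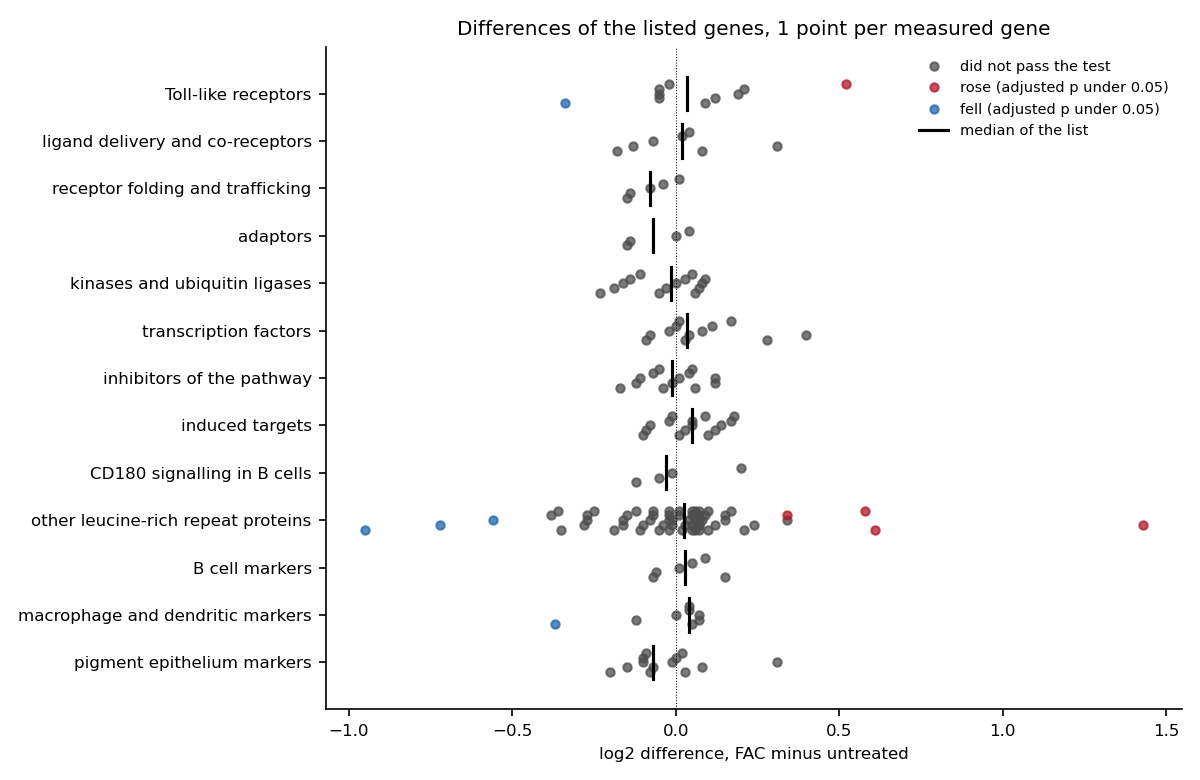
Log2 difference, FAC minus untreated, of every measured gene of each list, 1 point per gene, with the list's median as a black bar. From the ligand delivery list down to the induced targets no point is coloured, so no gene passed, while the leucine-rich repeat list runs from -0.95 to 1.43.

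Over all genes 3.73% passed, so each of the short lists here and below would hold few calls at that share. Upstream of the adaptors, none of 7 genes of ligand delivery and co-receptors passed. After LY96, the matrix proteoglycan gene VCAN had the smallest p (-0.18 ± 0.08, adjusted p = 0.299, with -0.10 on a second probe). Of 5 measured genes of receptor folding and trafficking none passed. LRRC59 measured -0.15 ± 0.05 (adjusted p = 0.19), and CNPY3, a chaperone that most but not all Toll-like receptors need to leave the endoplasmic reticulum, -0.14 ± 0.05 (adjusted p = 0.197). UNC93B1, which carries the endosomal receptors TLR3, TLR7 and TLR9, measured -0.04 ± 0.06 (adjusted p = 0.774).

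Among the signalling genes, none of 4 measured adaptors passed. MYD88, the adaptor of every Toll-like receptor but TLR3, measured -0.15 ± 0.07 (adjusted p = 0.356), and SARM1, a TIR protein that dampens the pathway, -0.14 ± 0.07 (adjusted p = 0.333). None of 14 measured kinases and ubiquitin ligases passed, though 5 had all FAC arrays below all untreated ones, as had 13.0% of all genes. The smallest p-values there were those of TRAF3, a ubiquitin ligase on the way to interferon genes (-0.23 ± 0.06, adjusted p = 0.106), and IRAK1, a kinase recruited by MYD88 (-0.19 ± 0.06, adjusted p = 0.147). None of 13 measured inhibitors passed. The deubiquitinase genes OTUD7B (-0.17 ± 0.06, adjusted p = 0.176) and CYLD (-0.11 ± 0.05, adjusted p = 0.297) had the smallest p-values.

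None of 12 transcription factor genes passed. IRF1, an interferon regulatory factor, came nearest, with 7.06, 6.88 and 6.80 in FAC-treated cells and 6.44, 6.37 and 6.72 in untreated cells (0.40 ± 0.10, adjusted p = 0.0874). It passed with the dimmest 33.3% of genes left out (adjusted p = 0.0462) and with the robust variance prior that follows intensity (adjusted p = 0.0429). In the other 12 of 14 alternatives IRF1 did not pass (adjusted p up to 0.253). The NF-kappaB subunit gene NFKB1 measured 0.17 ± 0.06 (adjusted p = 0.16). In both, the FAC arrays lay above the untreated ones. None of 15 measured induced targets passed, and their differences ran from -0.10 to 0.18. The chemokine gene CXCL8 measured 0.14 ± 0.06 (adjusted p = 0.251) and the siderophore-binding protein gene LCN2 0.18 ± 0.08 (adjusted p = 0.312). Of these 15 targets, 9 lay in the dimmest 33.3% of genes, CXCL8 at percentile 8.0.

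Nor did any of 4 measured genes that carry CD180 signals in B cells pass, beside 3.73% of all genes that did. A list this short would seldom hold a call at that share. The kinase gene BTK measured -0.12 ± 0.05 (adjusted p = 0.307), the exchange factor gene VAV1 0.20 ± 0.17 (adjusted p = 0.621) and the kinase gene LYN -0.05 ± 0.07 (adjusted p = 0.792). BTK and VAV1 were dim, while LYN stood at percentile 69.0.

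CD180 was also set beside other cell surface and matrix proteins built on leucine-rich repeats, of which 62 of 75 were measured. Of these, 4 rose, 3 fell and 55 did not pass, so 11.3% were called, beside 3.73% of all genes. LRIG1, LRRC32 and LUM were known to change when the list was written, so the share and the calls of these genes are descriptions. The median difference was 0.02 and the median size 0.09, beside 0.08 over all genes.

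LRIG1, which restrains receptor tyrosine kinases, measured 10.74, 10.83 and 10.80 in FAC-treated cells and 9.23, 9.60 and 9.25 in untreated cells (1.43 ± 0.10, adjusted p = 0.000922). PODN, a small proteoglycan, measured 7.34, 7.36 and 7.47 with FAC, against 6.84, 6.80 and 6.71 in untreated cells (0.61 ± 0.06, adjusted p = 0.00385). Both rose, with gaps between the groups of 1.14 and 0.51. LRRC32, which anchors latent TGF-beta to the cell membrane, measured 6.96, 7.02 and 6.60 in FAC-treated cells and 7.99, 7.67 and 7.76 in untreated cells (-0.95 ± 0.13, adjusted p = 0.00928). EPYC, a proteoglycan of cartilage, measured 6.58, 6.61 and 6.59 with FAC and 7.34, 7.18 and 7.43 without (-0.72 ± 0.07, adjusted p = 0.00306). Both fell, and EPYC was almost identical on the 3 FAC arrays. The remaining calls, named after their values were seen, were the matrix proteins PRELP (0.58 ± 0.07) and LUM (-0.56 ± 0.08) and the neuronal membrane protein LRRN3 (0.34 ± 0.07). LRRN3, one of the dim genes, no longer passed when any 1 array was left out, with adjusted p from 0.0614 without untreated replicate 2 to 0.114 without FAC replicate 1. The others were 0.0826 and 0.0707 without untreated replicates 1 and 3, and 0.108 and 0.098 without FAC replicates 2 and 3. LUM did not pass without FAC replicate 1 (adjusted p = 0.0559).

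**Figure D4:**
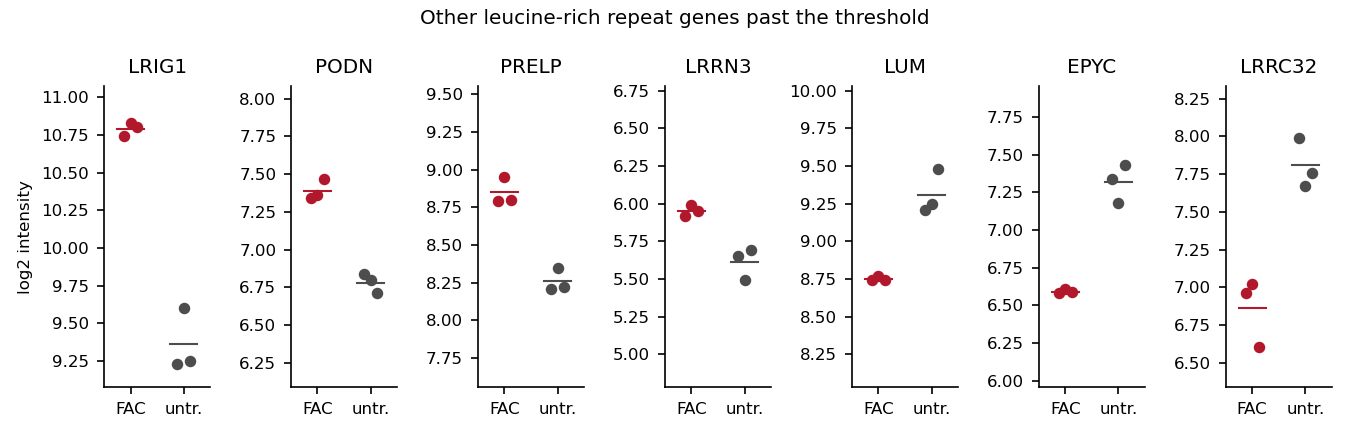
Log2 intensity of the 7 other leucine-rich repeat genes past the threshold on each array, FAC-treated cells in red at the left and untreated cells (untr.) in grey at the right, with group means as lines; every panel spans 2 log2 units. No gene has overlapping groups, which follows largely from choosing genes that passed the test on these arrays. The differences run from 1.43 for LRIG1 to -0.95 for LRRC32.

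The genes whose pattern over the 6 arrays was most like that of CD180 were ranked by Pearson's r among 142 candidates. Candidates differed by at least 0.5 between groups, and their higher group mean was at or above the median over all genes, 7.18. Symbols of the kinds used for uncharacterised loci or non-coding RNA genes, or beginning with KIAA or FAM, were left out. APCDD1 met the level filter only through its FAC mean (7.80, against 6.85 in untreated cells). The points share 2 groups that lie far apart, so r mostly restates the group difference and is given as a description. PLAAT4, a phospholipase gene first found as retinoid-responsive, came first with r = 0.9965, followed by LRIG1 (0.994), the pro-apoptotic gene PMAIP1 (0.9907), the BMP family ligand gene GDF5 (0.9906) and the Wnt inhibitor gene APCDD1 (0.9899). PLAAT4 measured 8.05, 8.02 and 8.08 with FAC and 7.26, 7.44 and 7.29 without. The ranking by r also favours genes with the same order of arrays within a group. As a description, untreated replicate 2 was the highest untreated array in CD180 and all 5 of these genes. Without that array the CD180 difference was 1.31, against 1.10 without untreated replicate 1. GDF5 had a second probe, which gave 0.22 in place of 0.73.

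**Figure D5:**
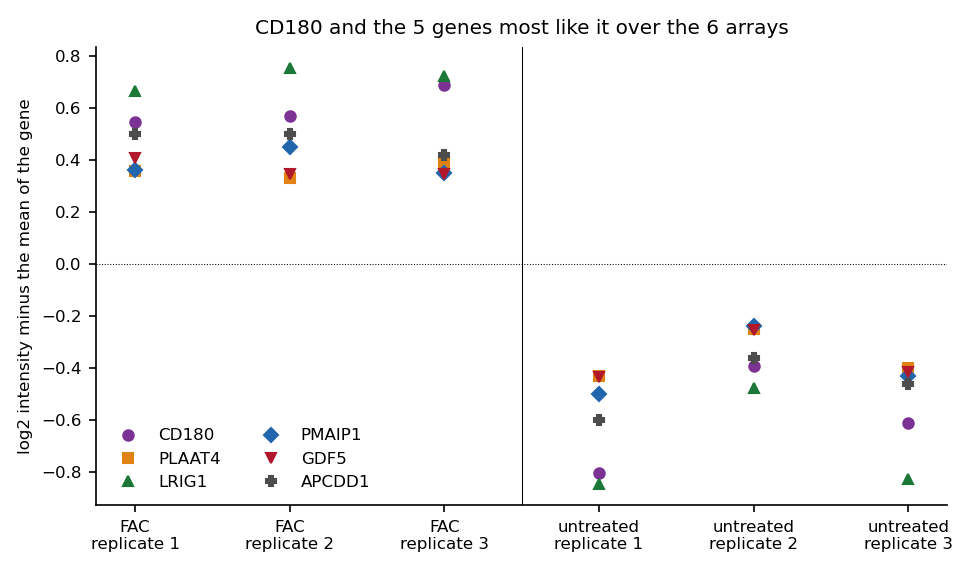
Log2 intensity of CD180 and the 5 genes most like it on each array, minus the gene's mean over the 6 arrays, with the FAC arrays at the left. All points of the FAC arrays lie above 0 and all of the untreated arrays below it. In each gene untreated replicate 2 is the untreated array nearest to 0, an order that the ranking by r favours.

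The chromosomal neighbours of CD180 were read from the RefSeq gene table of build GRCh38.p14, which lists no gene overlapping it. Genes without a named probe were passed over, and distances to CD180 were not compared. Over all genes tested, 1.88% rose. Of the 3 nearest measured genes on each side, CCNB1, the mitotic cyclin B1, rose (0.43 ± 0.08, adjusted p = 0.0289). It measured 8.57, 8.55 and 8.43 in FAC-treated cells and 7.99, 8.24 and 8.03 in untreated cells. It passed without untreated replicate 2, the highest untreated array here as in CD180, but not without any other array, with adjusted p of 0.0886 and 0.111 without untreated replicates 1 and 3 and 0.126, 0.0904 and 0.0593 without FAC replicates 1, 2 and 3. The centromere protein gene CENPH, the next measured gene on that side, measured 0.36 ± 0.09 (adjusted p = 0.0694), and KGD4 0.07 ± 0.06 (adjusted p = 0.656). On the other side the kinase gene MAST4, the nearest, measured 0.16 ± 0.08 (adjusted p = 0.386), the splicing regulator gene SREK1 -0.16 ± 0.06 (adjusted p = 0.2) and ERBIN 0.06 ± 0.07 (adjusted p = 0.695). None of the 6 differed by as much as CD180, but CD180 was chosen for its difference, so this comparison is only a description.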

How the data were processed

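The authors deposited 1 table of log2 intensities, with 53617 probes and 6 arrays; the submitters' processing notes list RMA and Partek 6.6, with neither role nor order. The values' range gave the log2 unit. Detection calls and scan dates are not part of the table, so signal over background and scan batches could not be examined, and the number of arrays limits the precision. Through the platform annotation, 16098 probes had 1 gene symbol, none had several and 37519 were unnamed. For genes with several probes the one with the highest mean was taken, giving 14884 genes. FAC was compared with untreated by limma 3.58.1 in R 4.3.3 (lmFit, eBayes, 2-sided, Benjamini-Hochberg over all 14884 genes, threshold 0.05). The median SE was 0.07.

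The members and gene lists were chosen with earlier results of these data known. The naming rule takes CD180, LY86, LY96 and every Toll-like receptor, from each list up to 4 called genes with the largest changes or the 1 or 2 smallest p, the 5 genes most like CD180 and 3 neighbours on each side. TICAM1, UNC93B1, LYN, CD14, CD68, OTX2, TYRP1, RPE65 and LY86-AS1 fall outside it and were named after their values were seen.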

Additional observations from a re-analysis of the deposited data

How the results depend on the processing

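Of the 14 alternatives run, 8 changed the processing and 6 left out 1 array each. The CD180 difference was 1.23 after quantile normalization, 1.19 with arrays centred on their medians and between 1.10 and 1.31 without 1 array each; array weights gave 1.20, and the other settings cannot move it by their construction. Of the whole array, 555 genes passed, and 840 without the dimmest 33.3% of genes. The count was 1026 with the robust variance prior that follows intensity, called the intensity prior below. It was 254 with every probe tested and 184 with the replicate number as a block. Without 1 array each the count lay between 147 and 447. Of the 80 pathway genes 2 passed, 4 without the dimmest 33.3%, 8 with the intensity prior, 0 with every probe tested and 0 with the replicate block, and between 0 and 1 without 1 array each. At an unadjusted p under 0.05 there were 13 of the 80, beside 2560 of all 14884 genes. Of the 62 other leucine-rich repeat genes 7 passed, 9 without the dimmest 33.3%, 11 with the intensity prior, 5 with every probe tested, 6 with the replicate block, and between 6 and 7 without 1 array each. TLR3 had an adjusted p of 0.0668 with the replicate block and 0.0863 with every probe tested, and TLR5 0.0631 and 0.132. With the same settings CSF1R had 0.0831 and 0.132, CCNB1 0.0599 and 0.108, and LRRN3 0.0982 and 0.130; CSF1R had 0.0511 with quantile normalization, and LUM 0.0529 with every probe tested. The labels do not say whether the replicate numbers pair the samples. Same-numbered arrays deviated from their group means with r of -0.02, -0.03 and -0.15. These values show no strong shared effect but cannot settle whether the cultures were paired. No called gene among those named changed direction. The cause of these moves was not tested, beyond the fewer or more genes adjusted over and the fewer arrays.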
